A study of Homo sapiens with 4 samples.

Results

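The Notch pathway was followed in RNA-seq data through 10 genes taken by name, 3 receptors (NOTCH1, NOTCH2 and NOTCH3), 3 ligands (JAG1, JAG2 and DLL1), the glycosyltransferase LFNG, the coactivator MAML2 and the target genes HES1 and HEY1, out of 63856 genes in the deposited count table. All 10 were found by Ensembl identifier in the counts and by symbol in the authors' table of normalized values, and 9 of them were among the 15830 genes that passed the filter on low counts. The samples were MCF10A cells, a non-tumorigenic human breast epithelial line left unmodified (wild type, WT), and MCF10A cells that stably overexpress HSF1 from a lentiviral pLVX vector (HSF1-pLVX), with 2 libraries of each and 18688109 to 24184285 counts per library. All cells were grown with horse serum, insulin, hydrocortisone, EGF and cholera toxin according to the labels. The transduced cells had also been selected in puromycin, and libraries of cells with the empty vector were not analysed here, so the introduced HSF1, the vector and the selection cannot be told apart. Replicates are called biological by the study, but the labels do not say that they came from separate cultures, and the p-values measure only the spread between these libraries.

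Notch receptors are membrane proteins that are cut when a Jagged or Delta-like ligand on a neighbouring cell binds them. The freed intracellular part enters the nucleus, joins the DNA-binding protein RBPJ and a Mastermind coactivator, and switches on repressors of the HES and HEY families. Fringe enzymes such as LFNG add sugars to the receptor that shift its preference between the ligand families. In the mammary gland the pathway is known for its part in the choice between luminal and basal cell fates.

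HSF1 itself was examined first, as a check of the labels. Its level was 200.4 and 189 CPM (counts scaled to library size, after TMM normalization) in WT replicates 1 and 2 and 982 and 999 CPM in HSF1-pLVX replicates 1 and 2. Its log2 fold change (HSF1-pLVX over WT) was 2.35 ± 0.10 (SE) (adjusted p = 1.14e-10, by the quasi-likelihood F test of edgeR, adjusted after Benjamini and Hochberg). Counts of the introduced and the endogenous transcript are not separated. The same test was used for every gene below, with a call at an adjusted p of 0.05 over all 15830 genes. The model borrows the spread of other genes, as the smallest p that an exact permutation test reaches with 2 WT and 2 HSF1-pLVX libraries is 0.333.

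NOTCH1, JAG1, JAG2 and HEY1 rose by between 2.90-fold and 4.79-fold in HSF1-pLVX cells. The largest of these rises, that of HEY1, started from only 6 and 4 counts in the WT libraries. NOTCH2 fell to 0.608 of its WT level, and the target HES1 did not follow the ligands and NOTCH1. Of the 9 members tested, 6 were called higher, where 32.7% of all genes tested were higher, and 2 were called lower, against 33.2% of all genes. With 65.9% of all genes called in either direction, a call was common in these libraries, and the members' fold changes say more than their calls. Counting only changes of at least 2-fold, 4 of the 9 members were higher, against 14.9% of all genes. Both HSF1-pLVX libraries lay above both WT libraries for 7 members, against 42.1% of all genes, and below them for 1 member, against 41% of all genes, so that the groups did not overlap for 8 of 9 members beside 83.1% of all genes. The median log2 fold change of the members tested was 0.49, beside 0.02 over all genes tested, and their median size regardless of direction was 0.72 beside 0.58.

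**Figure D1:**
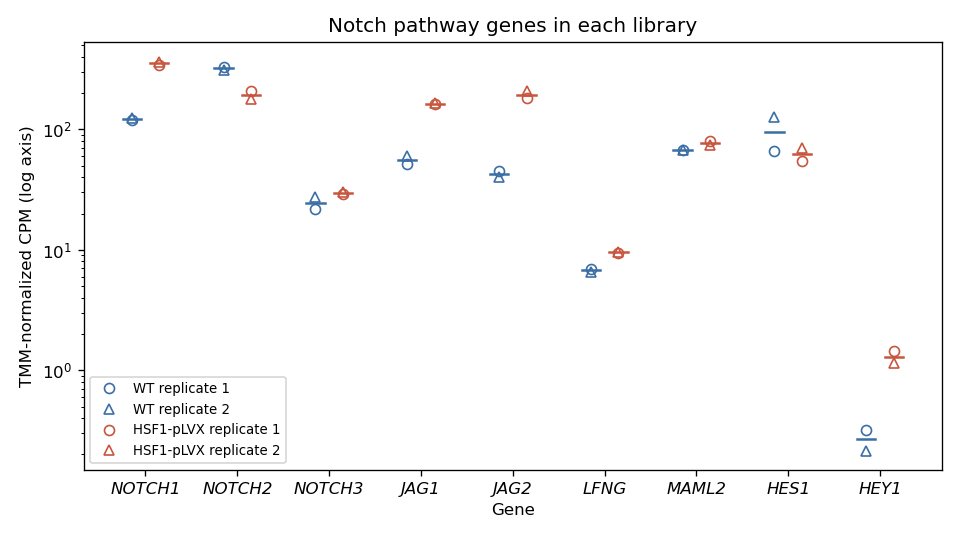
TMM-normalized CPM (log axis) of the 9 tested Notch pathway genes in each of the 4 libraries, with WT in blue and HSF1-pLVX in red, a circle for replicate 1, a triangle for replicate 2 and a bar at the mean of each group. NOTCH1, JAG1, JAG2 and HEY1 lie higher in both HSF1-pLVX libraries, NOTCH2 lies lower, and the HES1 values of the groups overlap.

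Among the receptors, NOTCH1 (ENSG00000148400.9, hg38 chromosome 9, 136494444 to 136545862, minus strand) is required for the development of many epithelia. It stood at 119.8 and 124 CPM in the WT libraries and at 344 and 363 CPM in the HSF1-pLVX libraries. Both HSF1-pLVX values were well above both WT values, and each pair of replicates lay close together. The log2 fold change was 1.54 ± 0.09 (SE) (adjusted p = 2.85e-09), and it lay between 1.51 and 1.58 with any 1 library left out. A gene on the opposite strand inside NOTCH1, ENSG00000227512, held between 4 and 14 counts per library, beside 2248 to 8630 counts of NOTCH1.

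NOTCH2 (ENSG00000134250.19, chromosome 1, 119911553 to 120069626, minus strand), the receptor with the highest level in WT cells, moved in the opposite direction. It held 331 and 309 CPM in the WT libraries and 209 and 179.9 CPM in the HSF1-pLVX libraries, with no overlap. Its log2 fold change was -0.72 ± 0.10 (SE) (adjusted p = 1.73e-05). NOTCH2 has partial copies on the same chromosome to which its reads could also be assigned. In the count table the copy NOTCH2NLA held 13, 13, 30 and 16 counts in WT replicates 1 and 2 and HSF1-pLVX replicates 1 and 2, and NOTCH2P1 held 0 in all of them, against at least 3574 for NOTCH2. Reads that fit several copies equally well may not have been counted, so the level of NOTCH2 is uncertain to that extent.

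NOTCH3 (ENSG00000074181.8, chromosome 19, 15159038 to 15200981, minus strand), best known from the smooth muscle of blood vessels, was the least abundant of the 3. It was at 22.0 and 27.3 CPM in WT cells and at 28.8 and 29.9 CPM in HSF1-pLVX cells. The groups did not overlap, but WT replicate 2 lay nearer to the HSF1-pLVX libraries than to WT replicate 1. The log2 fold change of 0.25, with a 95% interval from 0.02 to 0.49, did not pass the threshold (adjusted p = 0.0574). Without WT replicate 2 it was 0.40 and called (adjusted p = 0.00455), and without WT replicate 1 it was 0.12 (adjusted p = 0.426).

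The opposite moves of NOTCH1 and NOTCH2 changed the order of the receptors. Levels of different genes were compared as CPM per kilobase of counted exon. This length, such as 2062 bases for HES1 and 16807 for NOTCH2, covers all exons counted for a gene. It may exceed that of the transcripts expressed, and comparisons between genes, here and below, depend on it. In WT replicates 1 and 2, NOTCH2 made up 57.6% and 54.3% of the summed level of the 3 receptors, and NOTCH1 made up 35.5% and 37.1%. In HSF1-pLVX replicates 1 and 2, NOTCH1 made up 69.2% and 72.6%, and NOTCH2 24.7% and 21.1%. NOTCH3 gave between 6.10% and 8.60% in all libraries. The ratio of NOTCH1 to NOTCH2 was 0.616 and 0.682 in WT libraries and 2.80 and 3.43 in HSF1-pLVX libraries, a complete separation for which the exact permutation test gives its smallest possible p (p = 0.333, two-sided). The sum of the receptors was 34.1 and 33.8 CPM per kilobase in WT cells and 50.3 and 50.6 in HSF1-pLVX cells.

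**Figure D2:**
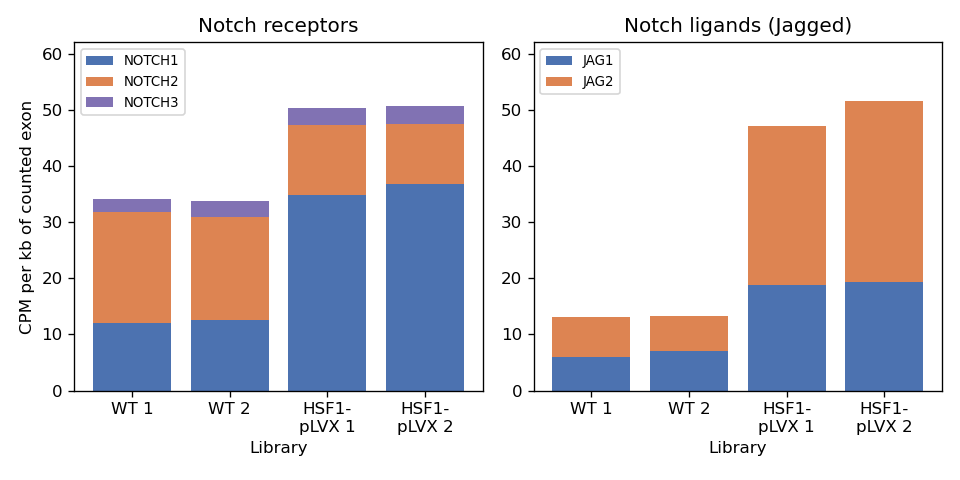
Stacked levels, in CPM per kilobase of counted exon, of the Notch receptors (left) and of the Jagged ligands (right) in each of the 4 libraries. NOTCH2 is the larger part of the receptors in both WT libraries and NOTCH1 in both HSF1-pLVX libraries, while both Jagged genes are higher in the HSF1-pLVX libraries.

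Among the ligands, JAG2 (ENSG00000184916.8, chromosome 14, 105140981 to 105168824, minus strand) was at 45.2 and 40.2 CPM in the WT libraries and rose to 181 and 206 CPM in the HSF1-pLVX libraries. This was a 4.53-fold change, a log2 fold change of 2.18 ± 0.10 (SE) (adjusted p = 2.62e-10). In size regardless of direction it was larger than the changes of 92.2% of all genes tested. JAG1 (ENSG00000101384.11, chromosome 20, 10637684 to 10674107, minus strand), the other Jagged ligand, was at 51.3 and 59.7 CPM in WT cells and at 161 and 165 CPM in HSF1-pLVX cells. Its log2 fold change was 1.55 ± 0.09 (SE) (adjusted p = 3.94e-09). The groups did not overlap for either ligand, and with 1 library left out the log2 fold changes lay between 2.08 and 2.28 for JAG2 and between 1.46 and 1.65 for JAG1.

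Per kilobase, the Jagged ligands were about equally abundant in WT cells, where the ratio of JAG2 to JAG1 was 1.17 in replicate 1 and 0.898 in replicate 2. In HSF1-pLVX cells the ratio was 1.50 and 1.67. The log2 ratio was 0.62 higher in HSF1-pLVX cells, a difference that separated the groups, for which the exact permutation test again gives its smallest possible p (two-sided, p = 0.333). The sum of JAG1 and JAG2 went from 13.1 and 13.3 CPM per kilobase in the WT libraries to 47.1 and 51.6 in the HSF1-pLVX libraries.

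DLL1 (ENSG00000198719.8, chromosome 6, 170282206 to 170306565, minus strand), a Delta-like ligand, held 0 counts in all 4 libraries, but this may not measure its expression. The count table lists a second gene with the same exon widths on the contig KI270798.1, outside the main chromosomes, and this copy held 0, 0, 0 and 2 counts in WT replicates 1 and 2 and HSF1-pLVX replicates 1 and 2. FAM120B, a gene that overlaps DLL1 on the opposite strand and also has a copy on that contig, held between 0 and 1 counts on chromosome 6 and between 1 and 3 on the contig. PSMB1, a proteasome gene further along chromosome 6 with no such copy, held between 2116 and 3209. FAM120B and PSMB1 were chosen after their values were seen. Over the whole table, 79.6% of 446 protein-coding genes with such a copy held 3 counts or fewer in every library, against 22.2% of 17578 without one. These sets of genes were not matched in other respects. Whether reads that fit both copies were left out of the counts is not stated in the sources used here. Absence of DLL1 and uncounted reads therefore cannot be told apart, and DLL1 is treated as not measured.

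LFNG (ENSG00000106003.12, chromosome 7, 2512529 to 2529177, plus strand), the Fringe enzyme that modifies the receptors, was at 6.98 and 6.57 CPM in WT cells and at 9.48 and 9.56 CPM in HSF1-pLVX cells. The 2 groups did not overlap, and the change of 1.41-fold was called (log2 fold change 0.49, standard error 0.14, adjusted p = 0.00811). The call was lost without HSF1-pLVX replicate 2 (log2 fold change 0.49, adjusted p = 0.0570) and with DESeq2's Wald test (adjusted p = 0.127). MAML2 (ENSG00000184384.13, chromosome 11, 95976598 to 96343180, minus strand), a Mastermind coactivator of the nuclear complex, was at 66.7 and 67.0 CPM in WT cells and at 80.2 and 74.0 CPM in HSF1-pLVX cells. Its log2 fold change of 0.21 (95% interval 0.03 to 0.39) was barely past the threshold (adjusted p = 0.0407) and was not called with any 1 library left out, where the adjusted p ran from 0.0683 to 0.244.

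HES1 (ENSG00000114315.3, chromosome 3, 194136145 to 194138732, plus strand) encodes a transcriptional repressor and is the classical direct target of Notch signalling. It was at 65.6 and 126 CPM in WT replicates 1 and 2 and at 54.5 and 69.7 CPM in HSF1-pLVX replicates 1 and 2. WT replicate 2 stood apart from the other 3 libraries, and WT replicate 1 lay between both HSF1-pLVX libraries. The test called HES1 lower (log2 fold change -0.63, standard error 0.21, adjusted p = 0.0153), with a 95% interval from -1.07 to -0.18 that lies wholly below 0. Without WT replicate 2 the log2 fold change was -0.10 (adjusted p = 0.451), so the size of the fall rested on that library. The call was also lost without HSF1-pLVX replicate 1 (log2 fold change -0.45, adjusted p = 0.122), without HSF1-pLVX replicate 2, where the fall was larger but its standard error was 0.42 (log2 fold change -0.80, adjusted p = 0.195), and with DESeq2's Wald test (adjusted p = 0.284).

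HEY1 (ENSG00000164683.16, chromosome 8, 79764010 to 79767863, minus strand), a repressor related to HES1 and also a Notch target, was scarce. It held 6 and 4 counts in the WT libraries and 36 and 23 in the HSF1-pLVX libraries, or 0.320 and 0.215 CPM against 1.43 and 1.16 CPM. The groups did not overlap, and the log2 fold change of 2.26 ± 0.42 (SE) was called (adjusted p = 0.000281). Its 95% interval, from 1.36 to 3.16, was the widest among the members tested. HES1 and HEY1 thus moved in opposite directions in the fit, from very unequal levels of 46.5 and 0.0828 CPM per kilobase in WT cells.

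**Figure D3:**
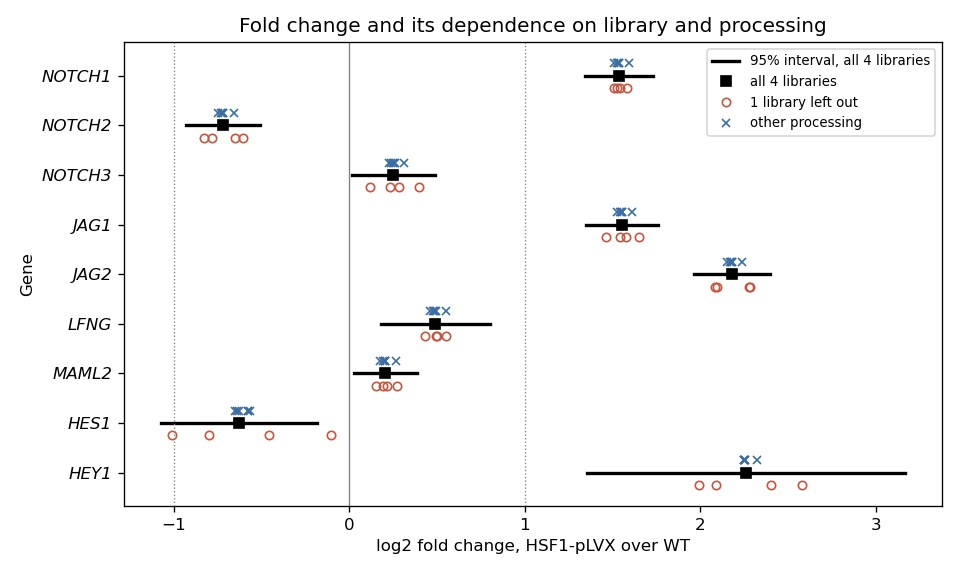
Log2 fold change (HSF1-pLVX over WT) of the 9 tested members with its 95% interval in black, the values with 1 library left out as red circles and the values under other processing as blue crosses. The 4 circles of HES1 spread from -1.01 to -0.10, while those of NOTCH1 stay between 1.51 and 1.58, and the dotted lines mark 2-fold changes.

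Promoter sequences from RefSeq (GRCh38.p14, the same assembly as hg38) were matched to 8 of the 10 members. DLL1 had no match, and HEY1 was left out of the search, so its promoter was not examined. They are shown for the target HES1 and for NOTCH1, JAG1 and JAG2, which rose together. Each was read 5′ to 3′ on the strand of the gene, within 250 bases before its RefSeq start and only as far as the first base counted for the gene. Capitals mark matches to TGGGAA, the core bound by RBPJ, to the palindromes TTCNNGAA and GAANNTTC, which join a pair of the 3-base units bound by HSF1, or to the E-box CACGTG, each searched on both strands.
HES1, chr3:194135898-194136144, plus strand: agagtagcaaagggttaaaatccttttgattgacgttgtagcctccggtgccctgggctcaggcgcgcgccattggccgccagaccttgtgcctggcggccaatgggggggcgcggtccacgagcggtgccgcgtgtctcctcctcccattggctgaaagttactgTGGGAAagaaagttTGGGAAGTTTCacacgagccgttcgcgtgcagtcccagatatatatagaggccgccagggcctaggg
NOTCH1, chr9:136546049-136546298, minus strand: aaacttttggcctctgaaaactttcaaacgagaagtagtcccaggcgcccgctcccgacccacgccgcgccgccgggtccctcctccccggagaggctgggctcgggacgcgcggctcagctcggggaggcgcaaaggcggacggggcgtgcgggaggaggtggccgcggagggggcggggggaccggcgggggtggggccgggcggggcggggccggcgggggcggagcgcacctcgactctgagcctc
JAG1, chr20:10674108-10674249, minus strand: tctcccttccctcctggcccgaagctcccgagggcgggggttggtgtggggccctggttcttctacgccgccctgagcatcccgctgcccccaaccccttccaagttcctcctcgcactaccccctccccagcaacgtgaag
JAG2, chr14:105168825-105169026, minus strand: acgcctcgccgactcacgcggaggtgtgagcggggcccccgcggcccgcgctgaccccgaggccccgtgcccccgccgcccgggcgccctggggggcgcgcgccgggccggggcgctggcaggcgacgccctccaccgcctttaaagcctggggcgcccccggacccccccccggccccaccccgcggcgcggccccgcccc

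HES1 held TGGGAA at 2 places, from base -84 to -79 and from -70 to -65 counted from its start, and the second overlapped a match to GAANNTTC from -67 to -60. The windows of NOTCH1, JAG1 and JAG2 held none of the 4 motifs over their full 250 bases, nor did those of NOTCH2, NOTCH3 and MAML2. Of the 2 LFNG windows, 1 held TGGGAA. Among all 35116 RefSeq promoter windows of this length, 20.8% held TGGGAA, 6.62% TTCNNGAA, 5.78% GAANNTTC and 6.34% CACGTG. The share of G and C in the member windows ran from 57.2% for the second LFNG window and 59.2% for HES1 to 81.6% for JAG2, beside a median of 58% over all windows. A match describes letters in the window and not a bound site, and the lack of one says nothing of sites elsewhere.

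Ordered by level per kilobase, the members in WT cells ran from HES1 at 46.5 ± 20.7 CPM per kilobase (SD, n = 2, as for all values in this order) over NOTCH2 at 19.0 ± 0.923, NOTCH1 at 12.3 ± 0.285 and MAML2 at 9.40 ± 0.0309 to JAG2 at 6.67 ± 0.549 and JAG1 at 6.51 ± 0.699. NOTCH3 at 2.62 ± 0.398, LFNG at 1.98 ± 0.0853 and HEY1 at 0.0828 ± 0.0228 were lowest. Only JAG2 and JAG1 were neighbours whose libraries overlapped. In HSF1-pLVX cells NOTCH1 was first at 35.8 ± 1.37, followed by JAG2 at 30.3 ± 2.80, HES1 at 30.1 ± 5.19, JAG1 at 19.1 ± 0.371, NOTCH2 at 11.6 ± 1.22 and MAML2 at 10.9 ± 0.614. The libraries of JAG2 and HES1 overlapped in this order, as did those of NOTCH2 and MAML2.

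On the authors' normalized values, which are log2-like, the study's own rule of a 2-fold difference between the cell types in each of the replicate numbers was passed upwards by NOTCH1, JAG1, JAG2 and HEY1, 4 of 11 rows that carry the name of a member, against 5% of all 22321 rows. The downward rule was passed by 6.42% of all rows. On that scale the ratios of HEY1 were 2.19 and 2.23 in replicates 1 and 2, where its CPM gave 4.49 and 5.38. Ratios on that scale are 2 to the power of the difference of the values. For JAG2, with more counts, the ratios were 3.83 and 5.01 on the authors' values and 4.01 and 5.13 on CPM.

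Beyond the members, 51 further genes of the pathway were followed as lists of its parts, of which 44 were tested. There were 12 higher, 18 lower and 14 not called, with a median log2 fold change of -0.17 beside 0.02 over all genes, of which 32.7% were higher and 33.2% lower. The counts of the single lists below stand against the same shares. One list held 9 genes for proteases that mature and cut the receptors or for other subunits of a protease complex. Of these 9, 6 were lower, where 33.2% of all genes were lower, 1 was higher and 2 were not called. Their median log2 fold change was -0.59. FURIN, which cleaves Notch during its maturation, had 366 ± 14.9 CPM in WT and 122 ± 6.38 CPM in HSF1-pLVX libraries (SD, n = 2), a log2 fold change of -1.58 ± 0.09 (SE). PSEN2, a catalytic subunit of gamma-secretase, had a log2 fold change of -1.45, and APH1B and PSENEN of the same complex were also lower, while NCSTN and APH1A were not called. ADAM17, a sheddase, was the protease that rose, with a log2 fold change of 0.56. The more abundant ADAM10, the other ADAM protease of the list, was lower. It had 166 ± 9.57 CPM in WT and 125 ± 7.53 CPM in HSF1-pLVX libraries (SD, n = 2), a log2 fold change of -0.41 (adjusted p = 0.00114).

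Among 4 sugar-adding enzymes, POFUT1 and POGLUT1, which attach the first fucose and glucose to Notch, rose with log2 fold changes of 0.94 and 0.96. RFNG, another Fringe enzyme, stood at 33.0 ± 0.215 CPM in WT against 27.0 ± 0.230 CPM in HSF1-pLVX libraries (SD, n = 2) and was lower (log2 fold change -0.29, adjusted p = 0.0127), and its adjusted p rose to between 0.0527 and 0.0877 without WT replicate 1 or without either HSF1-pLVX library, which left 0 lower genes in this list. MFNG was not called. In the nuclear complex, 2 of 10 genes tested were higher, 2 lower and 6 not called. RBPJ, the DNA-binding partner of cleaved Notch, was lower with a log2 fold change of -0.37 (adjusted p = 0.00277), a call lost without HSF1-pLVX replicate 2 (adjusted p = 0.107). The acetyltransferase KAT2B fell with a log2 fold change of -1.41, and the corepressor SPEN and the cofactor SNW1 rose with log2 fold changes of 0.65 and 0.37. MAML1 held 1 to 3 counts per library and, like DLL1 and NOTCH4, has a copy outside the main chromosomes, so it is treated as not measured. The number of nuclear complex genes lower was 1 without HSF1-pLVX replicate 2 and 4 with DESeq2's size factors.

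Of the 13 ubiquitin ligases and endocytic regulators, 4 were higher, 5 lower and 4 not called. FBXW7, which marks cleaved Notch for degradation, rose with a log2 fold change of 1.05, and MIB2, a ligase that acts on ligands, with one of 0.97. NEURL1B, another ligase of ligand uptake, fell with a log2 fold change of -2.17, and AAK1, a kinase of endocytosis, with one of -1.22. The adaptor NUMB, an inhibitor of Notch, and its relative NUMBL were lower, with log2 fold changes of -0.44 and -0.95.

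The other receptors and ligands that could be measured were mostly near the detection limit. DLK2, a membrane protein related to the Delta-like ligands that can dampen Notch signalling, was the exception. It rose from 2.66 and 2.15 CPM in the WT libraries to 54.6 and 61.1 CPM in the HSF1-pLVX libraries, a log2 fold change of 4.58 ± 0.14 (SE) (adjusted p = 5.66e-12). DLL4 held 18 and 12 counts in WT cells and 2 and 1 in HSF1-pLVX cells, a level 12.0 times higher in WT cells by the summed counts, with an exact 95% interval for counting error only from 3.74 to 61.7. DLK1 held 0 counts throughout, and DLL3 held 3 to 10. NOTCH4 also held 0 counts, but it has a copy outside the main chromosomes and is treated as not measured.

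Among 9 other genes reported as Notch targets, 2 were higher, 3 lower and 1 not called, and HES5, HEY2 and HEYL held 0 counts in all libraries. The name HES5 is on 2 rows of the authors' normalized values, so its 0 may not measure its expression. MYC had 85.2 ± 6.64 CPM in WT and 529.7 ± 8.64 CPM in HSF1-pLVX libraries (SD, n = 2), a log2 fold change of 2.64 ± 0.10 (SE), while CCND1, which encodes cyclin D1, had 1912 ± 17.8 CPM in WT and 223 ± 32.9 CPM in HSF1-pLVX libraries, a log2 fold change of -3.10 ± 0.12 (SE). HES4 fell with a log2 fold change of -1.20. NRARP, a feedback inhibitor induced by Notch, held 3 counts in each WT library and 18 and 16 in the HSF1-pLVX libraries, a level 4.71 times higher by the summed counts, with an exact 95% interval for counting error only from 1.95 to 13.7. It was not called with DESeq2's Wald test (adjusted p = 0.0830). The target genes thus did not share a direction.

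**Figure D4:**
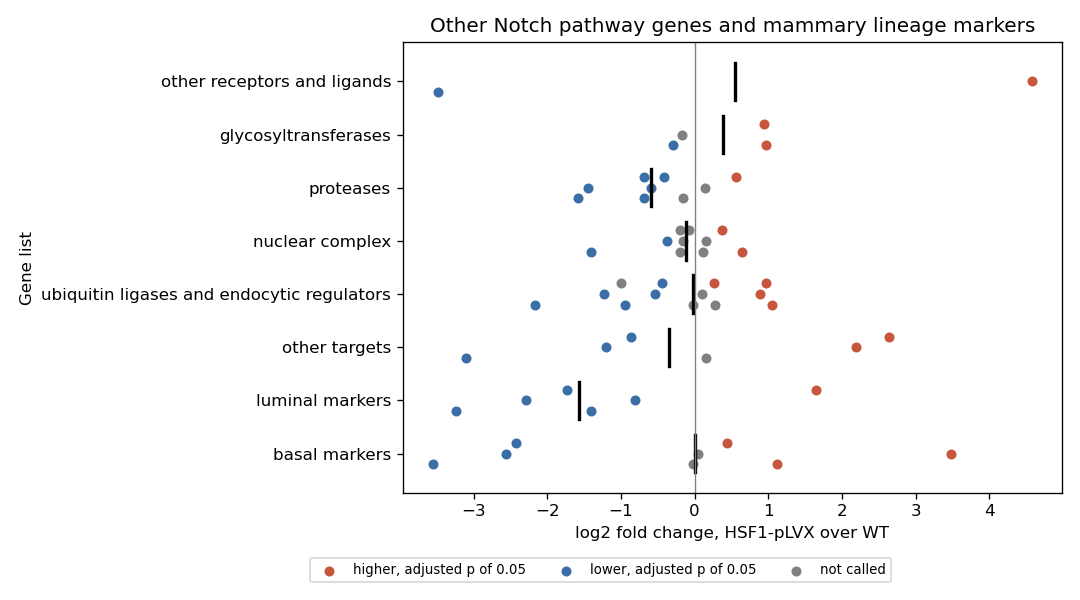
Log2 fold change (HSF1-pLVX over WT) of each tested gene in the lists of other pathway parts and of mammary lineage markers, in red where called higher, blue where called lower and grey where not called, with a black bar at the median of each list. The genes for proteases and their subunits lie mostly below 0 with a median of -0.59, and the luminal markers have a median of -1.57.

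Markers of the mammary lineages moved in the same libraries. Of 6 luminal markers tested, 5 were lower and ESR1 was higher, with a median log2 fold change of -1.57, where 33.2% of all genes were lower and 32.7% higher. The keratin KRT8 fell with a log2 fold change of -3.24 and GATA3, a luminal transcription factor, with one of -2.28. The 8 basal markers divided into 3 higher, 3 lower and 2 not called. TP63, a basal transcription factor, had 9.69 ± 0.990 CPM in WT and 107.9 ± 2.86 CPM in HSF1-pLVX libraries (SD, n = 2), a log2 fold change of 3.48 ± 0.10 (SE), and KRT5 rose with one of 1.12, while KRT14 and KRT17 fell with log2 fold changes of -3.55 and -2.56. In bulk RNA, fewer cells of a type and less RNA per cell cannot be told apart, and the part of these shifts in the Notch values was not tested.

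The labelled cell type was checked with 7 epithelial markers, each of them detected, whose summed level was 15685 to 15694 CPM in WT and 6856 to 7298 CPM in HSF1-pLVX cells. KRT17 was the largest part of the sum in WT cells, at 7165 to 7223 CPM, and KRT5 in HSF1-pLVX cells, at 4293 to 4890 CPM. The list was mixed, as KRT5 rose while EPCAM (log2 fold change -1.36), CDH1 (-1.43), KRT8, KRT14, KRT17 and KRT18 fell. For fibroblasts, the summed level of 8 markers was 7.88 to 10.9 CPM in WT and 13.9 to 15.0 CPM in HSF1-pLVX cells, with COL1A2, COL3A1, LUM and THY1 at 3 counts or fewer in every library and DCN at 1 and 3 counts in WT and 94 and 87 in HSF1-pLVX cells. The 5 endothelial markers summed to 2.10 to 3.14 CPM in WT and 13.4 to 14.6 CPM in HSF1-pLVX cells, mostly from KDR at 1.45 to 1.86 and 12.3 to 12.9 CPM. The 5 leukocyte markers summed to 21.8 to 25.9 CPM in WT and 3.88 to 4.98 CPM in HSF1-pLVX cells, nearly all from CSF1R, while PTPRC was at 0 in every library. The name PTPRC is on 2 rows of the authors' normalized values, so its 0 may not measure its expression.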

How the data were processed

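The authors aligned paired-end reads to hg38 with HISAT2 2.0.5, processed them with SAMtools 1.13 and deposited raw counts per gene from featureCounts 1.6.5. The strand, overlap and multi-mapping settings are not given in the sources used here. The authors' second table, made with DESeq2 1.32.0, holds log2-like normalized values and served only for the study's ratio rule.

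Groups and replicate numbers came from the labels. The deposited counts went into edgeR 4.0.16 (R 4.3.3) with TMM normalization, the filterByExpr filter and the quasi-likelihood test, adjusted by Benjamini-Hochberg over 15830 genes and without the replicate number as a block. The standard error is the log2 fold change divided by the square root of F. Intervals are not adjusted for the number of genes. The script was checked on simulated libraries with known changes, in which all genes shared the same dispersion. This was a check of the code and did not cover spread that differs between genes. Replicates differed by more than sampling noise (chi-square per degree of freedom 4.39 for WT and 5.30 for HSF1-pLVX). Depth limits genes under about 50 counts, and 3 counts were taken as the floor.

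The members and gene lists were chosen with earlier results of these data known. Named were all members and, in each list, up to 2 highest and 2 lowest called genes with at least 50 counts in the higher group, with further genes in place of a count chosen after their values were seen. The alternatives were other normalizations, no filter, DESeq2 1.42.0, a replicate block, other call rules and each library left out.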

Additional observations from a re-analysis of the deposited data

How the results depend on the processing

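HSF1, NOTCH1, NOTCH2, JAG1, JAG2 and HEY1 kept their direction and call under every other normalization, filter, test and block and with each library left out, while the stricter call rules left out NOTCH2. With each library left out, where a lone library is assumed to vary like the other group, the log2 fold changes lay between 2.29 and 2.40 for HSF1, -0.82 and -0.60 for NOTCH2, 1.99 and 2.58 for HEY1, 0.12 and 0.40 for NOTCH3, -1.01 and -0.10 for HES1, 0.15 and 0.27 for MAML2 and 0.43 and 0.55 for LFNG. NOTCH3 was called higher with library size as the only normalization (0.31) and with the replicate block (0.26). HES1 was not called with library size only (-0.58) or DESeq2's Wald test (-0.65). MAML2 was not called with DESeq2's size factors (0.19), no filter (0.20), DESeq2's Wald test (0.18) or the replicate block (0.21), nor LFNG with DESeq2's Wald test (0.46). The number of members lower was 1 with library size only, 1 with DESeq2's Wald test, 0 with a 2-fold limit and 0 by the study's ratio rule, since NOTCH2 and HES1 changed by under 2-fold, and between 1 and 2 with a library left out. The cause of the other changes was not tested. The number of members higher was between 4 and 7, and over all genes between 3765 and 5458 were called higher and between 3846 and 5529 lower. Of the other named genes, RFNG, RBPJ and NRARP lost their calls under some alternatives, while ADAM10, EPCAM, CDH1 and KRT18 were not followed under them.

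Neither the labels nor the study's methods say that same-numbered libraries share more than a number. The correlation of their deviations was -0.015 over all tested genes and -0.114 over 9672 genes above 8 CPM. With 2 libraries per group, this cannot show whether they share a culture or batch. The block leaves 1 residual degree of freedom and gave 5138 genes higher and 5171 lower, against 5175 and 5253 without it. A crossed pairing, chosen after seeing the data, gave 5429 higher and 5487 lower and 7 members higher, where NOTCH3 was called at 0.25.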
